A study of Mus musculus with 20 samples.

Results

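The 44 genes described here encode the machinery that carries newly made proteins into the endoplasmic reticulum (ER) and on to the Golgi apparatus. They were taken by name from a list sorted into 8 roles, and their rows were read in a table of 23284 mouse genes. All 44 were in the table, and all 44 were among the 13456 genes that passed the filter on low values, which asked for a log2 value of at least 5 in at least 4 libraries. Every value called a level is the log2 value the authors deposited, and every difference is between group means on that log2 scale, on which a difference of 1 is a doubling.

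A secretory protein is recognised by its signal sequence as it leaves the ribosome. The signal recognition particle (SRP) binds that sequence and docks at a receptor on the ER, the Sec61 channel lets the chain through the membrane, the translocon-associated protein (TRAP) complex assists the channel, and signal peptidase removes the signal sequence. The COPII coat then buds vesicles from the ER with cargo picked by its Sec24 subunits, cargo receptors such as LMAN1 load soluble proteins, and the COPI coat and the KDEL receptors bring escaped ER residents and membrane back. Secretory epithelia of the male accessory glands depend on this route, since their product is secreted protein.

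The samples were tissue recombinants, grafts of mouse epithelial cells (strain given as hybrid 129/SvImJ and C57Bl/6J, donors aged 2 months, named as C57Bl/6J in the protocol) with urogenital sinus mesenchyme of Sprague Dawley rats, the embryonic tissue that induces prostate. Grafts were collected 3 months after implantation, and doxycycline was in the drinking water for 3 months to switch on an inducible vector. There were 5 groups of 4 libraries: seminal vesicle epithelium (SVE) and prostate epithelium (PE), both labelled wild-type NKX3.1, and seminal vesicle epithelium carrying the construct labelled mNKX3.1, the hairpin labelled UTY_sh, or both (mNKX3.1+UTY_sh). NKX3.1 is a prostate homeobox factor and UTY a Y-linked relative of a histone demethylase. The labels do not say which NKX3.1 the construct holds, although the protocol speaks of a wild type and a point mutant, and no label ties a library to an animal of its own, so a p-value here measures only how these samples vary, and that variation may be technical. Because these are bulk grafts, fewer cells of a type and less RNA per cell cannot be told apart, nor can rat reads that align to mouse genes.

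Some facts of the libraries bear on all that follows. Depth was about 20260000 to 25000000 reads for SVE and about 14930000 to 20820000 for PE. It was about 15470000 to 21860000 for mNKX3.1, 22520000 to 24950000 for UTY_sh, and 24050000 to 29810000 where both were present. In SVE 10 seminal vesicle secretory genes took 48.5 to 61.9% of the reads, and in PE 0.215 to 1.48%. Uty had levels of 9.04 to 9.55 in SVE, 8.98 to 9.52 with the hairpin and 9.09 to 9.29 with hairpin and construct, so the hairpin groups overlapped SVE for the gene the hairpin's label names. In mNKX3.1 it stood at 10.07 to 10.31 and in PE at 10.13 to 10.45, so every library with hairpin and construct lay below every library with the construct alone. The prostate transcript Pbsn stood at 15.7 in SVE replicate 1, 14.8 in UTY_sh replicate 3 and 15.1 in mNKX3.1+UTY_sh replicate 4, the highest library of each group. The counts of called members are given without these 3 libraries as well. Other libraries that were kept also held Pbsn, such as UTY_sh replicate 2 at 13.8 and mNKX3.1+UTY_sh replicate 3 at 12.6, while mNKX3.1+UTY_sh replicate 1 stood at 5.29.

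The mNKX3.1 libraries lay unusually close to PE, and they also varied less among themselves. For 41 of the 44 members their SD was below that of PE, and the median SD over the members was 0.0482 in mNKX3.1 and 0.0882 in PE. Over all tested genes it was also lower, 0.109 in mNKX3.1 and 0.149 in PE. A weighted sum of 2 libraries was fitted to 6485 other genes and then read on the 42 members with a level of at least 8 in every library. Sums of 2 PE libraries missed the members' levels in the mNKX3.1 libraries by a median of 0.0217 to 0.0390 (log2), and on the fitted genes their squared residuals were 1.15 to 1.65 times the counting noise. The reverse sums, of 2 mNKX3.1 libraries, missed the PE libraries by 0.0451 to 0.0836, at 2.07 to 4.43 times the counting noise. Sums of 2 other PE libraries, with fewer pairs to choose from, missed a PE library by 0.0511 to 0.124, at 2.96 to 11.5 times. Sums of 2 SVE libraries gave 1.93 to 3.55 times for UTY_sh and 2.14 to 3.32 times for mNKX3.1+UTY_sh, against 3.52 to 16.4 times for the SVE libraries from one another. The origin of this closeness was not tested, so results from the 3 engineered groups are given beside those of PE and SVE and not as a separate replication of them.

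The promoters of the transport genes are shown because coat and translocation genes are known targets of stress-responsive factors that read a short core, ACGTGG. On the opposite strand the same core appears as CCACGT. RefSeq promoters of build GRCm38.p6, 300 bases running from 250 before the start site to 50 after it, were matched for 35 of the 44 members, and both strands were searched. The core was found in 16 of the 35 (45.7%), against 13.4% of the 9617 tested genes with a promoter and 9.395% of all 27025 genes with a promoter. It stood in 7 of 11 promoters of COPII and Sec22b (63.6%), 3 of 5 of COPI (60%), 2 of 3 of the TRAP complex and 0 of 5 of SRP and its receptor. The translocon had it in 1 of 4, signal peptidase in 1 of 3, and KDEL receptors and cargo receptors in 1 of 2 each. Over the 10 further lists read below the share ran from 7.69% (post-Golgi coats) to 55.6% (other COPI genes). Other COPII genes had it in 2 of 9 (22.2%). Among members with a promoter it was found in 11 of the 22 that were higher in PE than SVE, in 2 of the 3 that were lower and in 3 of the 10 that were not called. A pair of longer elements, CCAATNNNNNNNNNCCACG and ATTGGNCCACG, which share 5 of the core's letters on the other strand, were found in 0 of 35 members, against 0.187% and 0.0624% of the tested genes. A match is a string of letters and not a bound site. Windows of 50 bases are printed 5′ to 3′ on the gene's own strand with the core in capitals, for members from several roles and of both directions.
Sec24d: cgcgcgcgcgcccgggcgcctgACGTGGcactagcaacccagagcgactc
Sar1a: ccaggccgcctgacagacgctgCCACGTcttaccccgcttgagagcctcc
Copb1: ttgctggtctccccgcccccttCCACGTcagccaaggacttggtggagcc
Spcs1: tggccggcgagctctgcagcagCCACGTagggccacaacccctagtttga
Ssr1: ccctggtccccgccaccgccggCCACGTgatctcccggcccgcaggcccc
Sec63: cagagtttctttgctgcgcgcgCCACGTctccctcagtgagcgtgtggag
Sec24b: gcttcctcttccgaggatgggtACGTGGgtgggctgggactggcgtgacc
These windows are chr3:123267450-123267499 (plus strand) for Sec24d, chr10:61680106-61680155 (plus) for Sar1a, chr7:114254681-114254730 (minus) for Copb1, chr14:31001699-31001748 (minus) for Spcs1, chr13:37994254-37994303 (minus) for Ssr1, chr10:42761452-42761501 (plus) for Sec63 and chr3:130061049-130061098 (minus) for Sec24b. Sec24d and Sec24b, whose levels moved in opposite directions below, both hold the core once, at position -24 from the start site in Sec24d and at -169 in Sec24b.

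Between prostate and seminal vesicle grafts the machinery was mostly higher in PE, and by little. In PE against SVE 29 of the 44 members were higher (65.9%), beside a background of 31.8% of all 13456 tested genes called higher, and 3 were lower (6.82%), beside 30.4% of all genes (limma, Benjamini-Hochberg adjusted p below 0.05). The 12 others did not pass. The median difference of the members was 0.30, against 0.02 for all tested genes, while the median absolute difference was 0.349, against 0.357. A change of at least 2-fold was found for 2 members (4.55%), against 15.8% of all genes. For 27 members every PE library lay above every SVE library, as for 25.3% of tested genes, and for 3 every PE library lay below, as for 23.6%. Without the 3 Pbsn-rich libraries 28 members were higher and 3 lower, beside 31.1% and 30.5% of all genes. With only PE and SVE in the fit 26 were higher and 3 lower, beside 26.4% and 25.4%.

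These counts depend on how the libraries were scaled. When every library was given the same total of normalised reads, PE moved by 0.77 against SVE for all genes alike, and all 44 members were called higher in PE and 0 lower, in a background of 78.2% of all genes higher and 6.53% lower. On that scale Sec62 differed by 0.16 (adjusted p = 0.0412) and Sec24b by 0.53 (1.46e-05), both reversed in sign. As a share of all reads the 44 members made up 0.480 to 0.562% in the SVE libraries and 0.974 to 1.04% in the PE libraries. Their share was 0.991 to 1.02% for mNKX3.1, 0.465 to 0.503% for UTY_sh, and 0.472 to 0.534% for the group with both. These shares depend on the whole total, of which the 10 seminal vesicle secretory genes took 48.5 to 61.9% in SVE and 0.215 to 1.48% in PE. The members' share with those genes set aside was not computed, so the shares cannot be read as a doubling of the machinery. Directions below are on the deposited scale, and centring on the median, a trimmed mean or well-expressed genes moved PE against SVE by at most 0.0071.

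**Figure D1:**
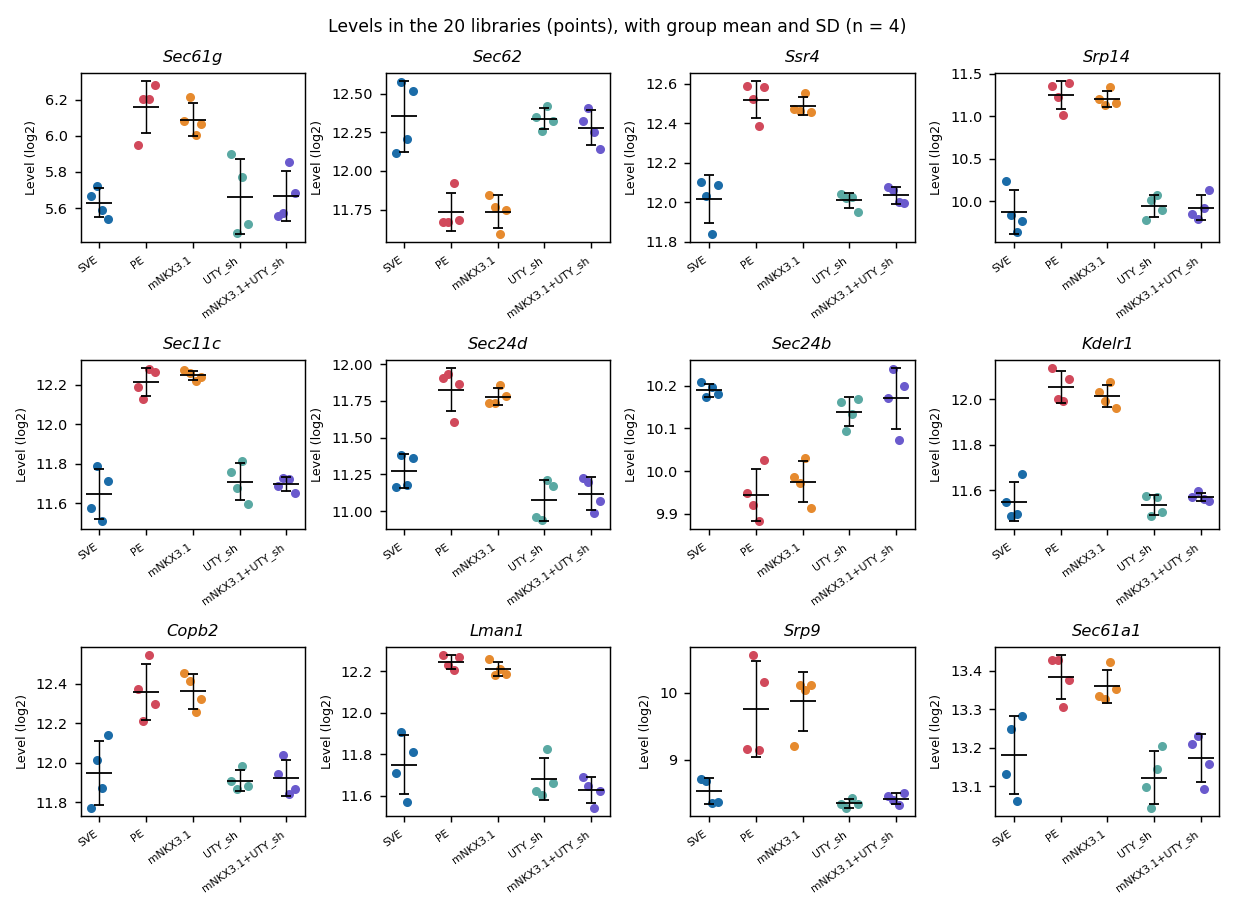
Level (log2, deposited values) of 12 members in the 20 libraries, by group, with the group mean and SD (n = 4) in black; each panel has its own axis, which does not start at 0. The PE and mNKX3.1 libraries lie above the other 12 for Sec61g, Ssr4, Srp14, Sec11c, Sec24d, Kdelr1, Copb2, Lman1, Srp9 and Sec61a1, and below them for Sec62 and Sec24b on the deposited scale.

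The translocon split by subunit. Sec61a1, Sec61b and Sec61g, the 3 parts of the channel itself, were higher in PE, by 0.20 (SE 0.06, adjusted p = 0.00523), 0.52 (SE 0.07, 4.99e-06) and 0.53 (SE 0.12, 7.27e-04) in limma. Sec62 and Sec63, the membrane partners of the channel that assist import after translation, were lower in PE on the deposited scale and higher with equal totals. The levels of Sec62 were 12.11, 12.58, 12.20 and 12.52 in SVE, 11.67, 11.67, 11.92 and 11.68 in PE, and 11.85, 11.77, 11.59 and 11.75 in mNKX3.1. In UTY_sh they were 12.35, 12.26, 12.42 and 12.32, and in mNKX3.1+UTY_sh 12.32, 12.41, 12.25 and 12.14. The lowest value outside PE and mNKX3.1, SVE replicate 1 at 12.11, lay above the highest PE library, replicate 3 at 11.92. The difference of Sec62 between PE and SVE was -0.62 (SE 0.09, adjusted p = 1.69e-05), or 1.53-fold lower in PE, and that of Sec63 -0.35 (SE 0.08, 6.07e-04). Sec61g, the smallest channel subunit, had levels of 5.67, 5.72, 5.59 and 5.54 in SVE, 5.95, 6.20, 6.20 and 6.28 in PE, 6.08, 6.21, 6.00 and 6.06 in mNKX3.1, 5.90, 5.46, 5.77 and 5.51 in UTY_sh and 5.55, 5.57, 5.85 and 5.68 in mNKX3.1+UTY_sh. UTY_sh replicate 1 at 5.90 lay just under PE replicate 1 at 5.95, and the gene is near the filter, where the deposited scale compresses differences.

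Of the TRAP complex, which binds beside the channel, 3 of 4 members were higher in PE, as were 31.8% of all tested genes. Ssr1 differed by 0.24, Ssr2 by 0.43 and Ssr4 by 0.50, whereas Ssr3 differed by -0.05 (95% interval -0.22 to 0.12) and did not pass. Ssr4 stood at 12.10, 12.03, 11.84 and 12.09 in SVE and at 12.59, 12.53, 12.39 and 12.59 in PE. In mNKX3.1 it stood at 12.47, 12.46, 12.56 and 12.46, in UTY_sh at 12.04, 12.02, 12.03 and 11.95, and in mNKX3.1+UTY_sh at 12.08, 12.06, 12.00 and 12.00. The lowest PE library, at 12.39, lay above the highest SVE library, at 12.10, and the SE of the difference was 0.06 (adjusted p = 5.98e-07, limma).

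SRP and its receptor held the 2 members with a change of at least 2-fold and also 3 that did not pass. Srp9 and Srp14 form the Alu-domain heterodimer that pauses translation. Srp14 had levels of 10.24, 9.84, 9.63 and 9.77 in SVE and 11.36, 11.23, 11.02 and 11.39 in PE. They were 11.20, 11.13, 11.34 and 11.15 in mNKX3.1, 9.78, 10.01, 10.07 and 9.89 in UTY_sh, and 9.84, 9.79, 9.92 and 10.13 in mNKX3.1+UTY_sh. The nearest libraries were SVE replicate 1 at 10.24 and PE replicate 3 at 11.02, and Srp14 was 2.60-fold higher in PE than SVE, a difference of 1.38 (SE 0.11, adjusted p = 8.25e-09). Srp19, which helps assemble the particle, was higher by 0.32 and Srp68, a subunit of its S domain, by 0.28. Srp72, the partner of Srp68, differed by 0.08 (interval -0.09 to 0.25), and Srpr, the receptor subunit that binds the particle, by 0.06 (-0.08 to 0.20). Srp54a, the signal-binding GTPase, differed by 0.20 with a wide interval (-0.51 to 0.92). Its level was only 3.92 to 6.02, and the near-identical copies Srp54b and Srp54c could take its reads, so its value is uncertain.

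Srp9 had the largest SD of any member in any group, in PE, and within PE and mNKX3.1 it varied together with leukocyte markers. Its levels were 8.71, 8.67, 8.36 and 8.36 in SVE, 9.16, 10.57, 9.14 and 10.16 in PE, 9.20, 10.11, 10.04 and 10.12 in mNKX3.1, 8.34, 8.27, 8.43 and 8.33 in UTY_sh and 8.45, 8.39, 8.32 and 8.50 in mNKX3.1+UTY_sh. The SD of Srp9 was 0.721 in PE and 0.448 in mNKX3.1. In mNKX3.1, UTY_sh, mNKX3.1+UTY_sh and SVE the low-level Srp54a varied more, with SDs of 0.644, 0.471, 0.556 and 0.372. PE replicates 2 and 4 and mNKX3.1 replicates 2, 3 and 4 were high, and PE replicates 1 and 3 and mNKX3.1 replicate 1 lay between them and SVE. Emr1, the F4/80 macrophage marker, had levels of 6.71, 12.32, 8.62 and 11.46 in PE and 7.99, 11.42, 11.04 and 11.64 in mNKX3.1, so the same 5 libraries were its highest, and in the other 12 libraries it was 7.05 to 7.66. Itgam, an integrin of myeloid cells, followed that order with 7.12, 11.32, 7.92 and 10.38 in PE and 7.63, 10.41, 10.10 and 10.58 in mNKX3.1. In the other 12 libraries Itgam was 8.43 to 9.08, above PE replicates 1 and 3 and mNKX3.1 replicate 1. Srp9 went the other way, at 8.27 to 8.71 in those 12 and 9.14 to 9.20 in the PE and mNKX3.1 libraries just named. The shared order thus held only within PE and mNKX3.1. Of the 5 leukocyte markers that passed the filter, Emr1 and Cd68 were higher in PE than SVE, and the mean level of the 5 was 7.35 to 10.4 in PE and 7.81 to 8.21 in SVE, while Cd3e did not pass the filter. Srp9 was 2.35-fold higher in PE than SVE, by 1.23 (SE 0.25, adjusted p = 3.76e-04). In PE replicate 1 Emr1 stood at 6.71, below every SVE library, and Srp9 at 9.16, with the highest SVE library at 8.71. The part of leukocytes in the Srp9 difference between PE and SVE was not tested. Srp14 did not follow the markers, with PE replicate 1 at 11.36 and replicate 2 at 11.23.

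**Figure D2:**
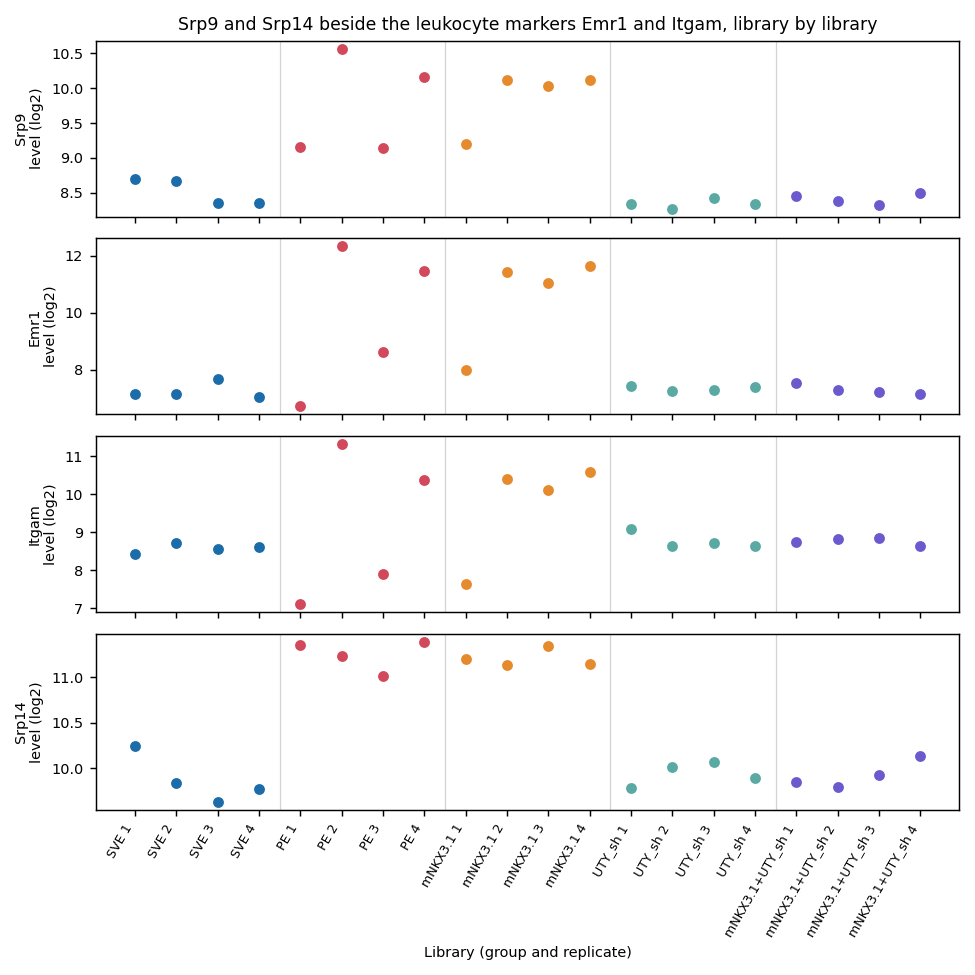
Level (log2) of Srp9, Emr1, Itgam and Srp14 in each of the 20 libraries, coloured by group; axes do not start at 0. The 5 PE and mNKX3.1 libraries with Srp9 at 10.04 or more are the 5 highest for Emr1 and Itgam, whereas Srp14 lies between 11.02 and 11.39 in all 8.

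Signal peptidase was the role in which every member was higher in PE, 5 of 5, beside 31.8% of all tested genes. Its median difference was 0.44. Sec11a and Sec11c, the alternative catalytic subunits, differed by 0.44 (SE 0.07, adjusted p = 2.95e-05) and 0.57 (SE 0.06, 1.85e-07), and Spcs1, Spcs2 and Spcs3, the accessory subunits, by 0.37, 0.26 and 0.55. Sec11c stood at 11.58, 11.79, 11.51 and 11.71 in SVE, 12.19, 12.13, 12.28 and 12.26 in PE and 12.27, 12.26, 12.22 and 12.24 in mNKX3.1. In UTY_sh it stood at 11.76, 11.67, 11.81 and 11.59, and in mNKX3.1+UTY_sh at 11.69, 11.73, 11.72 and 11.65. Per kilobase of transcript, Sec11c was the more abundant of the pair in every group, at 11.87 ± 0.13 (SD, n = 4) against 9.99 ± 0.12 for Sec11a in SVE and 12.43 ± 0.07 against 10.43 ± 0.12 in PE (log2 level per kb, by the longest coding transcript of GENCODE M21). The difference of Sec11a and Sec11c within a library moved by -0.13 between SVE and PE, with overlapping ranges and an exact two-sided permutation p = 0.343.

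COPII and Sec22b had 7 of 11 members higher in PE and 1 lower, beside 31.8% and 30.4% of all tested genes. The inner coat and its GTPase contributed Sec23a (0.38), Sec23b (0.37) and Sar1a (0.23), the outer coat Sec13 (0.22) and Sec31a (0.35), and Sec22b, a SNARE for ER-to-Golgi vesicles, 0.36. Sar1b, the second GTPase, differed by 0.08 (interval -0.04 to 0.20). The 4 Sec24 proteins, which choose the cargo, diverged: Sec24d was higher by 0.56 (SE 0.08, adjusted p = 1.09e-05), Sec24b was lower by 0.25 on the deposited scale only (-0.25, SE 0.04, 7.90e-05), and Sec24a and Sec24c differed by 0.09 (-0.13 to 0.32) and 0.00 (-0.11 to 0.11). Sec24d had levels of 11.16, 11.38, 11.18 and 11.36 in SVE, 11.90, 11.93, 11.61 and 11.87 in PE, 11.74, 11.73, 11.86 and 11.79 in mNKX3.1, 10.96, 10.94, 11.22 and 11.17 in UTY_sh and 11.23, 11.20, 10.99 and 11.07 in mNKX3.1+UTY_sh. Sec24b had levels of 10.21, 10.17, 10.20 and 10.18 in SVE, 9.95, 9.92, 9.88 and 10.03 in PE, 9.99, 9.97, 10.03 and 9.91 in mNKX3.1, 10.16, 10.09, 10.13 and 10.17 in UTY_sh and 10.17, 10.24, 10.07 and 10.20 in mNKX3.1+UTY_sh. For both genes the 8 PE and mNKX3.1 libraries stood apart from the other 12, though narrowly for Sec24b, between 10.03 and 10.07.

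Differences between paralogues within a library do not depend on how libraries are scaled. Sec24b minus Sec24d was -1.08 ± 0.13 in SVE and -1.88 ± 0.13 in PE (SD, n = 4), a shift of -0.80, and it was -1.80 ± 0.06 in mNKX3.1 and -0.95 ± 0.08 in mNKX3.1+UTY_sh. Sec24c minus Sec24d was 0.88 ± 0.02 in SVE and 0.32 ± 0.16 in PE. In other families Sar1a minus Sar1b was 1.26 ± 0.04 in SVE and 1.41 ± 0.05 in PE, and Kdelr1 minus Kdelr2 was 0.48 ± 0.16 and 0.99 ± 0.05. None of these 4 ranges overlapped between SVE and PE, but with 4 against 4 the smallest exact two-sided permutation p is 0.0286, and over the 24 pairs and comparisons computed the smallest adjusted p was 0.0527, so 0 of 24 passed. Per kilobase the order in SVE was Sec24c at 9.99 ± 0.10, Sec24d at 9.31 ± 0.12, Sec24b at 7.83 ± 0.02 and Sec24a at 7.68 ± 0.16. In PE Sec24d reached 9.86 ± 0.15 beside Sec24c at 9.99 ± 0.06, within their spread, and Sec24b at 7.59 ± 0.06 lay beside Sec24a at 7.77 ± 0.17.

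On the return route, 1 of 3 KDEL receptors and 4 of 6 COPI members were higher in PE, and 0 were lower. The background was 31.8% of all tested genes called higher and 30.4% called lower, so the KDEL receptors (33.3% higher) were near it. Kdelr1 stood at 11.55, 11.48, 11.49 and 11.67 in SVE, 12.14, 12.00, 11.99 and 12.09 in PE, 12.03, 11.99, 12.07 and 11.96 in mNKX3.1, 11.57, 11.49, 11.57 and 11.50 in UTY_sh and 11.57, 11.60, 11.56 and 11.55 in mNKX3.1+UTY_sh. Its difference was 0.50 (SE 0.05, adjusted p = 4.98e-08), with SVE replicate 4 at 11.67 and mNKX3.1 replicate 4 at 11.96 as the nearest libraries. Kdelr2 differed by -0.00 (interval -0.15 to 0.14) and Kdelr3 by 0.13 (-0.11 to 0.36). In COPI, Copa, Copb1, Copb2 and Copz1, which are the alpha, beta, beta-prime and zeta subunits, were higher by 0.24 (adjusted p = 0.0202), 0.35, 0.41 and 0.38, while Cope (0.08, interval -0.05 to 0.21) and Arcn1, the delta subunit (0.07, -0.07 to 0.21), did not pass. Copb2 had levels of 11.77, 12.02, 11.87 and 12.14 in SVE, 12.37, 12.21, 12.55 and 12.30 in PE, 12.46, 12.41, 12.26 and 12.32 in mNKX3.1, 11.91, 11.87, 11.98 and 11.88 in UTY_sh and 11.94, 12.04, 11.84 and 11.87 in mNKX3.1+UTY_sh. PE replicate 2 at 12.21 and SVE replicate 4 at 12.14 were its nearest libraries.

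Both partners of the LMAN1 and MCFD2 cargo receptor, which exports glycoproteins such as clotting factors, were higher in PE, by 0.49 (SE 0.06, adjusted p = 2.07e-06) and 0.42 (SE 0.08, 2.35e-04). The third receptor, Surf4, differed by -0.01 (interval -0.13 to 0.10). Lman1 had levels of 11.71, 11.91, 11.57 and 11.81 in SVE, 12.28, 12.23, 12.20 and 12.27 in PE, 12.26, 12.18, 12.21 and 12.19 in mNKX3.1, 11.62, 11.60, 11.83 and 11.66 in UTY_sh and 11.69, 11.65, 11.54 and 11.62 in mNKX3.1+UTY_sh. The lowest PE or mNKX3.1 library exceeded every other library, the nearest being SVE replicate 2 at 11.91.

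**Figure D3:**
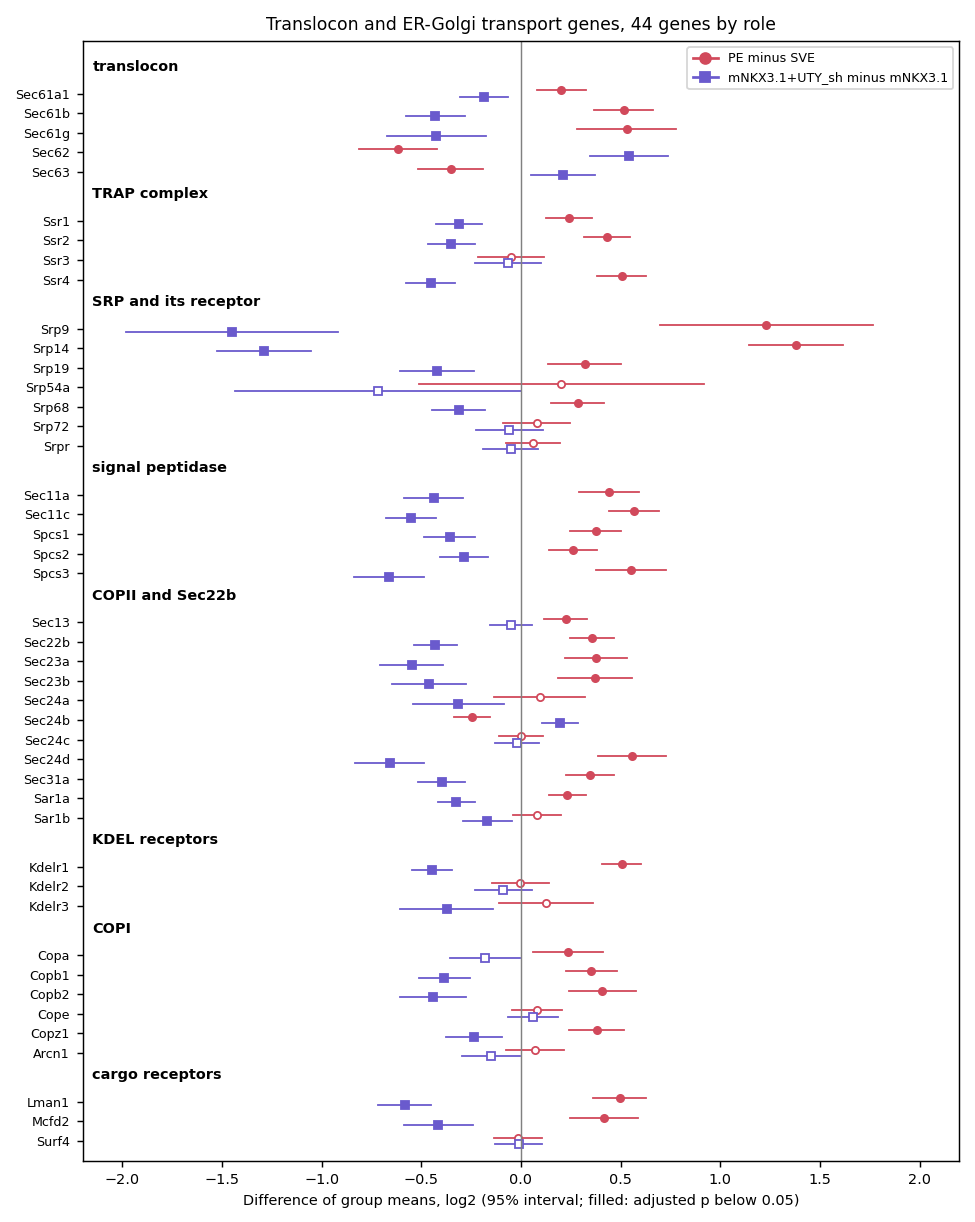
Difference of group means (log2, x axis) with its 95% interval for the 44 members, grouped by role: red circles are PE minus SVE and violet squares mNKX3.1+UTY_sh minus mNKX3.1, filled where the adjusted p was below 0.05. Most members lie to the right in red and to the left in violet, and Sec62, Sec63 and Sec24b lie the other way, on the deposited scale and not with equal totals.

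Grafts labelled with the construct were called different from SVE for the same members as PE, and from PE for none. In mNKX3.1 against SVE, which shares the SVE libraries with the comparison above, 29 members were higher and 3 lower, and they were the same 29 and 3 genes, beside backgrounds of 31.7% and 30.6% of all genes. How many of all called genes coincided in this way was not computed, so the match cannot be read as particular to the members. The median difference was 0.33, Srp14 differed by 1.34, Srp9 by 1.34, Sec11c by 0.60, Sec24d by 0.51 and Sec62 by -0.62. Without the 3 Pbsn-rich libraries 28 were higher and 3 lower, beside 31.1% and 30.7%. With equal totals, which shift this comparison by 0.78, 44 were higher and 0 lower, beside 78.8% and 6.54% of all genes. In mNKX3.1 against PE limma called 0 members and 0 of all genes (0%), with 0 members and 65 genes (0.483%) at an unadjusted p below 0.05. The members' differences ran from -0.07 for Sec61g to 0.29 for Srp54a.

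With the hairpin added to the construct most members were lower than with the construct alone. In mNKX3.1+UTY_sh against mNKX3.1, 30 members were lower, beside 32.4% of all genes, and 3 were higher, beside 31.4%, with a median of -0.35 against -0.02 for all genes. Without the 3 Pbsn-rich libraries 30 were lower and 3 higher, beside 31.6% and 30.8%. With equal totals, which shift this comparison by -0.78, 44 were lower and 0 higher, beside 77.6% and 7.03% of all genes. The 3 higher members were Sec62 (0.54, SE 0.09, adjusted p = 6.51e-05), Sec63 (0.21) and Sec24b (0.20). The lower ones included all 5 of signal peptidase, from -0.29 for Spcs2 to -0.66 for Spcs3, and 8 of 11 of COPII and Sec22b, with Sec24d at -0.66 (SE 0.08, 1.46e-06) and Sec23a at -0.55. Of the other roles 3 of 5 translocon members, 3 of 4 of TRAP, 4 of 7 of SRP and its receptor, 2 of 3 KDEL receptors, 3 of 6 of COPI and 2 of 3 cargo receptors were lower. Srp9 differed by -1.45 and Srp14 by -1.29. Of the 29 members higher in PE than SVE, 27 (93.1%) were among these 30 (90%), and 0 were called the opposite way. The matching share over all genes was not computed, so this overlap cannot be read as particular to the members. The closeness of the mNKX3.1 libraries to PE and of mNKX3.1+UTY_sh to SVE described above holds here too. Sec13 and Copa passed in PE against SVE and not here, where they differed by -0.05 and -0.18, and Sec24a (-0.31), Sar1b (-0.17) and Kdelr3 (-0.37) passed here and not there. The 9 that passed in neither were Ssr3, Srp54a, Srp72, Srpr, Sec24c, Kdelr2, Cope, Arcn1 and Surf4.

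The hairpin alone gave no called member. In UTY_sh against SVE limma called 0 of 44 members and 0 of all genes (0%), with 1 member, Sec24d (-0.20), and 316 genes (2.35%) at an unadjusted p below 0.05. In mNKX3.1+UTY_sh against SVE it also called 0 and 0 (0%), with 3 members at an unadjusted p below 0.05, Sec13 (0.11), Sec23a (-0.19) and Sec24a (-0.23), and 557 genes (4.14%). The hairpin groups' difference with the construct was tested directly against that without it as an interaction, in which 26 members were lower and 2 higher (Sec62 at 0.56 and Sec24b at 0.25), beside 24% of all genes in each direction. Its largest value was -1.36 for Srp14, followed by -1.27 for Srp9. Without the 3 Pbsn-rich libraries these counts were 21 and 3, beside 23% of all genes in each direction. With equal totals, which shift the interaction by -0.75, they were 43 and 0, beside 71.1% and 5.74%. In UTY_sh against SVE and in mNKX3.1+UTY_sh against SVE both settings again called 0 members. Across all groups, the 8 PE and mNKX3.1 libraries lay above the other 12 for 26 members (59.1%, against 20.5% of tested genes) and below them for 2, Sec62 and Sec24b (4.55%, against 19.4%).

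Neighbouring steps of the pathway were read from 10 further lists with 120 genes in the table, all for PE against SVE. The counts for these lists stand beside a background of 31.8% of all tested genes called higher and 30.4% called lower. Other translocation genes (40% higher), p24 proteins (44.4%) and other cargo receptors (36.4%) were near that share. Around the channel, 4 of 10 other translocation genes were higher, among them the chaperone Hspa5 (1.28), its relative Hyou1 (1.15), the nucleotide exchange factor Sil1 (1.11) and Ckap4 (0.90), and Sec61a2, the second channel alpha gene, was lower (-0.32). Of the oligosaccharyltransferase, which adds N-glycans to the entering chain, 10 of 11 were higher, for example Ddost (0.61) and Ost4 (0.49), whereas Stt3b, one of the alternative catalytic subunits, was lower by 1.40 (-1.40). Of 9 tail-anchored and membrane insertion genes 5 were higher, with Wrb at 0.90 and Get4 at 0.85.

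Among other COPII genes 6 of 10 were higher and 2 lower, with Sec31b, the second outer-coat gene, at -1.45. One of the 6, the cargo adaptor Mia2 (1.64), had a mean level of 4.95 in PE and 3.32 in SVE and passed the filter through PE and mNKX3.1 libraries alone, so its direction was set by the filter. Among other COPI genes 7 of 10 were higher and 2 lower, with Copz2 at 0.57, Arf4 at 0.45, Copg at -0.27 and Arfgap1 at -0.34. Of the p24 proteins, which sort cargo in both coats, 4 of 9 were higher, led by Tmed3 (1.01), and of other cargo receptors 4 of 11 were higher and 2 lower, with Lman2l at 0.82 and Ergic2 at -0.98. ER-Golgi SNAREs and tethers had 13 of 16 higher and 0 lower, with the tether Uso1 at 0.77 and Rab1 at 0.59, and post-Golgi coats 11 of 16 higher and 0 lower, with the clathrin adaptor Ap1b1 at 1.20 and the clathrin heavy chain Cltc at 0.71. Of 12 secretory regulators 6 were higher and 2 lower: Creb3l4 (2.36), Atf6 (1.58) and Creb3l1 (0.74), all membrane-bound transcription factors, were higher, Bhlha15 (-0.54) and Ern1 (-0.42) were lower, and Xbp1 differed by -0.21 without passing.

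**Figure D4:**
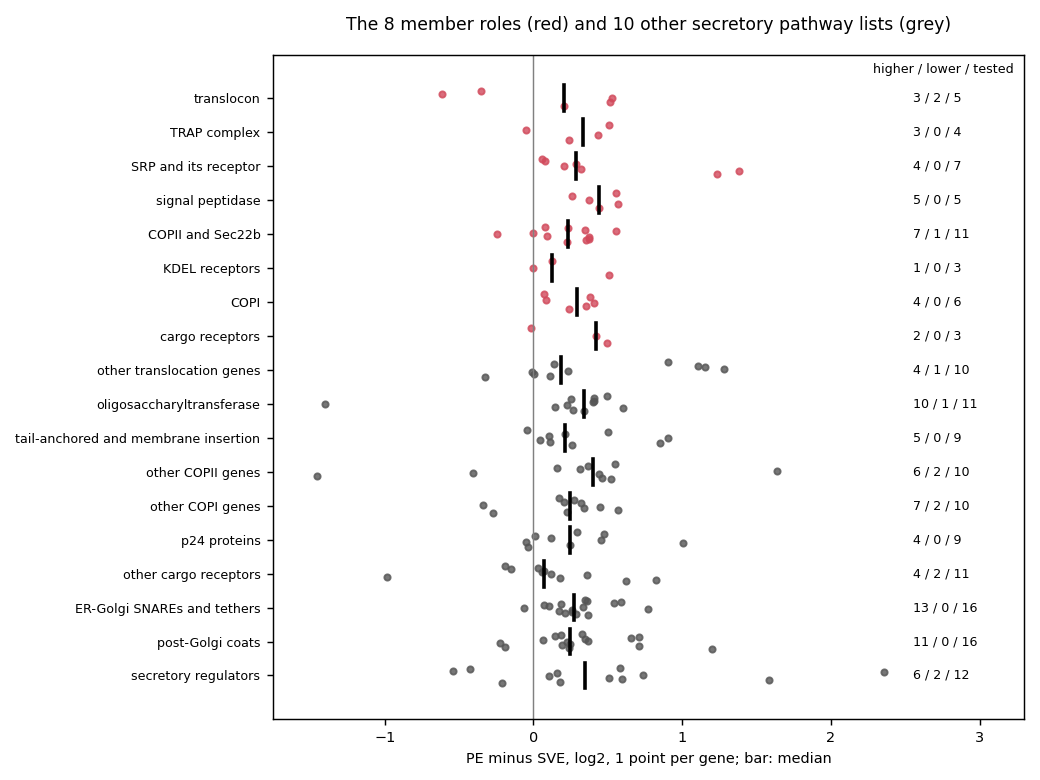
PE minus SVE (log2, x axis) for every tested gene of the 8 member roles (red) and the 10 other secretory pathway lists (grey), 1 point per gene, with the median as a black bar and the numbers called higher, called lower and tested at the right. Of all tested genes 31.8% were called higher and 30.4% lower. The medians of all 18 lists lie above 0, from 0.07 for other cargo receptors to 0.44 for signal peptidase, and with equal totals the whole plot would move right by 0.77.

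Markers of the cells in the grafts moved in the same comparison. Their counts stand beside 31.8% of all tested genes called higher and 30.4% called lower. In PE against SVE 7 of 8 luminal epithelial markers were higher, such as Epcam (1.73) and Cd24a (1.66), and the mean level of the 8 was 12.2 to 12.4 in PE and 11.1 to 11.7 in SVE. All 10 smooth muscle markers were lower, with a median of -1.13 and a mean level of 11.9 to 12.4 in PE and 13.0 to 13.7 in SVE. Of 7 fibroblast markers 4 were lower, and of 5 basal epithelial markers 1 was higher and 3 lower. The 5 nerve markers had a mean level of 4.93 to 7.33 in PE and 3.23 to 3.89 in SVE, and all 5 passed the filter only with the PE and mNKX3.1 libraries, so no count of calls is given. The 5 adipocyte markers past the filter, 2 of which passed it in that way, had a mean level of 6.94 to 8.12 in PE and 3.57 to 7.16 in SVE. For plasma cells, which are rich in this machinery, Derl3 was higher (1.20), Sdc1 and Prdm1 were lower, Igj differed by 1.50 without passing, and Tnfrsf17 and Cd79a did not pass the filter. Igj stood at 8.08, 11.03, 7.78 and 10.38 in PE and at 7.84, 10.30, 9.98 and 10.33 in mNKX3.1. Its 5 highest libraries were the 5 with the highest Srp9. Derl3 did not follow that order, with PE replicate 1 at 12.05 and replicate 2 at 11.83. The part of these cell types in the members' differences was not tested.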

How the data were processed

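Poly-A RNA went into TruSeq libraries for an Illumina HiSeq, per the labels' protocols. DESeq, Cufflinks 2.0.2, TopHat2 2.0.4 and bcl2fastq 1.8.4 and the mouse build mm9 appear in the submitters' processing notes. Not given in the sources used here are the counter, the annotation and what was done with reads from rat. The authors deposited log2 values, scaled per library and compressed at low levels, with no counts. Between 11 and 13 their antilogs were whole multiples of 1 unit per library (within 0.1, 100% of gaps), from which the approximate depth was read; low genes gave no whole reads, so no count test was run.

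One linear model with 5 group means was fitted to the 20 libraries with limma 3.58.1 (R 4.3.3, variance trend, empirical Bayes, Benjamini-Hochberg adjustment over all 13456 genes of each of 7 comparisons), and was tested on simulated data. The interaction is (mNKX3.1+UTY_sh minus mNKX3.1) minus (UTY_sh minus SVE). Intervals are 95%. Replicate numbers were given in library order and only name libraries. The members and lists were chosen with earlier results of these data known. Values in every library are given for the members with the largest called rise and fall of each role in PE against SVE, 10 in all, and for Srp9, which was chosen after its values were seen, as were some genes named from the other lists. The sums of libraries (Python 3.11.15, SciPy 1.17.1) were added after seeing the data. Other filters, scalings, variance settings, left-out libraries and a minimum change of 0.5 were tried. Some markers on the cell type lists are not reported here by name.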

Additional observations from a re-analysis of the deposited data

Results flagged for a closer look

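Of 220 sets of 4 libraries (44 members in 5 groups), 11 (5%) held a library far from the other 3, and chance alone flags about 1 in 20. In PE replicate 3 these were Sec62 at 11.92 (others 11.67 to 11.68), Ssr2 at 11.23 (11.42 to 11.44) and Mcfd2 at 12.08 (12.35 to 12.37). In mNKX3.1 they were Srp9 at 9.20 (10.04 to 10.12) and Copb1 at 12.30 (12.23 to 12.24) in replicate 1, Sec22b at 10.55 (10.45 to 10.46) in replicate 2, and Ssr4 at 12.56 (12.46 to 12.47) and Kdelr3 at 8.78 (9.05 to 9.09) in replicate 3. In UTY_sh replicate 3 they were Spcs3 at 12.15 (11.77 to 11.83) and Sar1b at 10.39 (10.21 to 10.24), and in SVE replicate 3 Sec24a at 10.17 (10.45 to 10.49).

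The hairpin's difference with the construct was tested against that without it, and 26 members were lower and 2 higher with the construct (limma interaction, adjusted p below 0.05), beside 24% of all genes in each direction.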

How the results depend on the processing

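No paired analysis was possible because the submitters' titles give library codes and no replicate number shared between groups; the numbers used here follow the order of the libraries and only name them. The member counts of all comparisons stayed within 1.5 times the reported ones without a filter, with a filter of 8, with 3 other centrings, without the variance trend, with robust moderation, with the compared groups alone and without the 3 Pbsn-rich libraries. A minimum change of 0.5 left 9 members higher and 1 lower in PE against SVE, 5 and 1 in mNKX3.1 against SVE, 1 higher and 7 lower in mNKX3.1+UTY_sh against mNKX3.1, and 1 and 5 in the interaction; by construction it removes smaller changes, among them Sec24b (-0.25), Copb2 (0.41) and Lman1 (0.49). Equal totals, chosen after seeing the data, gave 44 higher and 0 lower in PE against SVE and in mNKX3.1 against SVE, 0 higher in mNKX3.1+UTY_sh against mNKX3.1, and 0 higher and 43 lower in the interaction, and reversed Sec62 (0.16) and Sec24b (0.53); this scaling shifts all genes by 0.77, 0.78, -0.78 and -0.75 in these 4 comparisons. Leaving out 1 library gave 28 to 29 higher and 3 to 3 lower in PE against SVE, 28 to 30 and 3 to 3 in mNKX3.1 against SVE, 2 to 3 higher and 29 to 32 lower in mNKX3.1+UTY_sh against mNKX3.1, 2 to 3 and 25 to 27 in the interaction, and 0 to 0 in the other comparisons. Low levels limit Srp54a and Sec61g.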
